A study of Mus musculus with 6 samples.

Results

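The genes described here are 10 interferon-inducible GTPases of the mouse, chosen by name from the deposited gene tables, out of the 26187 genes that each table lists. They are 7 immunity-related GTPases (IRG), Igtp, Irgm1, Irgm2, Iigp1, Ifi47, Tgtp1 and Tgtp2, and 3 guanylate-binding proteins (GBP), Gbp2, Gbp3 and Gbp7. All 10 were found in the files. Their RNA was measured by poly(A) RNA-Seq in MC3T3-E1 cells, an established pre-osteoblast line from mouse calvaria, of which 3 libraries came from cells given, at 30 μg/mL for 2 days, PAKG–8diol–PEG(S) MPs (PAKG) and 3 from cells kept for 2 days without MPs (OC). The MPs are small microparticles of a polyester built from α-ketoglutarate, an octanediol and polyethylene glycol (PEG). Both groups received the same osteoconductive (OC) medium with ascorbic acid and β-glycerophosphate, and the labels name no added interferon, so the comparison asks how the genes differ in expression with and without the MPs.

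The values are FPKM (fragments per kilobase of transcript, scaled to the mapped fragments of a library), so levels are per length and can be set side by side between genes. The FPKM of a library summed to between 289675.9 and 325818.2, and the depth, which the files do not state, was estimated at 32800000 to 42200000 fragments. The methods describe culture in triplicate in general but do not state whether the 3 libraries of each group are separate wells of 1 experiment or separate experiments, so the p-values refer to the spread among these samples alone, and this may be technical. All 7 osteoblast lineage markers checked were measured, and they summed to 4658.9 to 5713.76 FPKM in OC and 6828.51 to 7579.47 FPKM in PAKG.

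IRG and GBP proteins are among the genes most strongly induced by interferon, and they defend a cell from within against vacuolar pathogens such as Toxoplasma and Chlamydia. Irgm1, Irgm2 and Igtp (also called Irgm3) are the regulators of the IRG system: they sit on the cell's own membranes and hold the effector IRG proteins inactive there. Iigp1, Tgtp1 and Tgtp2 are effectors, which load onto the vacuole around the pathogen and break it open, as Ifi47 is also thought to do. The GBPs are dynamin-like GTPases that gather on the same vacuoles. Interferon switches on transcription of both families through a pair of promoter elements, the gamma-activated sequence (GAS) and the interferon-stimulated response element (ISRE), the second of which is bound by IRF proteins.

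The promoters are shown to let these 2 elements be compared between the genes. RefSeq promoter windows on GRCm38.p6, each from 250 bases before to 50 bases after the gene's start, were given for 9 of the 10 genes, and Iigp1 had no entry. The core of the ISRE was searched on both strands as 2 copies of GAAA with any 2 bases between them, and that of the GAS as the letters TTCNNNGAA, which read the same on both strands. In the lines below, read 5′ to 3′ on the strand of the gene, the capitals mark these matches. On the other strand the ISRE core reads as 2 copies of TTTC, as in the GBP genes.
Igtp, chr11:58199498-58199555, plus strand: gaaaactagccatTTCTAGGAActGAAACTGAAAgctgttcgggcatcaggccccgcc
Irgm2, chr11:58214889-58214946, plus strand: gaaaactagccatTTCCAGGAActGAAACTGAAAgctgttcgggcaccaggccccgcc
Tgtp1, chr11:48992290-48992347, minus strand: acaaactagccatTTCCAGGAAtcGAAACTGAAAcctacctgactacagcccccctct
Tgtp2, chr11:49064249-49064306, minus strand: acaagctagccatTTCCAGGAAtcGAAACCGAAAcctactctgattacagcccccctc
Irgm1, chr11:48871421-48871474, minus strand: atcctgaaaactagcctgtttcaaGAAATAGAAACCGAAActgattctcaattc
Gbp2, chr3:142620580-142620637, plus strand: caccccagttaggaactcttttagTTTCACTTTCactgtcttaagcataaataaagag
Gbp3, chr3:142559975-142560038, plus strand: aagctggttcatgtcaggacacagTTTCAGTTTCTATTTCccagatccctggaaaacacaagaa
Gbp7, chr3:142530259-142530316, plus strand: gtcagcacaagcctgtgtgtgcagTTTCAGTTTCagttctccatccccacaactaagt

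The ISRE core was found in 8 of the 9 promoters, and in 3.44% of all 32851 RefSeq windows of this length (1131 windows). It lay within 77 bases before the start in each of the 8. Irgm1 and Gbp3 each hold a pair of overlapping matches. Ifi47 held neither core in its window, and a second window given for Gbp3 held no ISRE core. The GAS core was found in 5 of the 9 promoters, Igtp, Irgm2, Tgtp1, Tgtp2 and Gbp7, and in 8.3% of all windows. In Igtp, Irgm2, Tgtp1 and Tgtp2 it ended 2 bases before the ISRE core. In Gbp7 it occurred at 2 places upstream of the stretch shown, the nearer one ending 25 bases before the ISRE core. Windows with both cores made up 0.454% of all windows (149). Over the whole window, Igtp and Irgm2 were identical at 247 of 264 aligned bases (73.5% of the 336 alignment columns, gaps included) and Tgtp1 and Tgtp2 at 224 of 269 (67.7% of 331 columns). A match is a description of letters and does not show that a factor bound there.

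**Figure D1:**
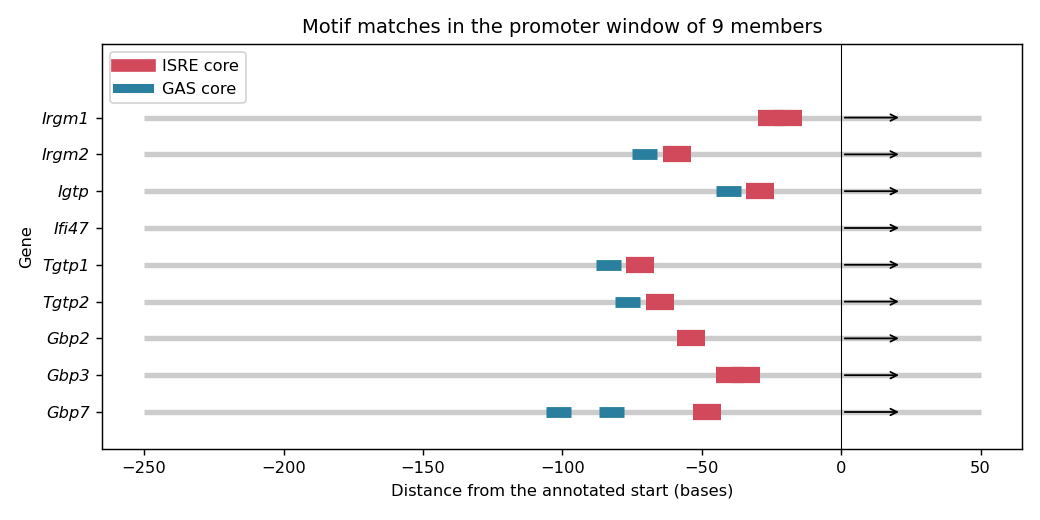
Positions of the ISRE core and the GAS core in the promoter windows of 9 genes, with the distance from the gene's start in bases on the horizontal axis and a grey line for each gene's first window. The GAS core ends 2 bases before the ISRE core in Igtp, Irgm2, Tgtp1 and Tgtp2, and the window of Ifi47 holds neither.

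Of the regulators, Igtp and Irgm2 fell, with mean FPKM 2.94 and 3.16 times as high in OC as in PAKG, whereas for Irgm1 this ratio was 1.17 and did not pass the test. Igtp (ENSMUSG00000078853; GRCm38 chromosome 11, 58199556 to 58207591, plus strand) was at 3.61, 3.37 and 3.66 FPKM in the OC libraries and at 1.31, 1.09 and 1.22 FPKM in the PAKG libraries. Each PAKG value was below each OC value, and the gap between the groups was wider than the range within either. The means were 3.55 ± 0.155 FPKM in OC and 1.21 ± 0.111 FPKM in PAKG (SD, n = 3), with about 770 and 269 fragments behind the groups. The log2 fold change of Igtp, on the log2(FPKM + 0.1) scale used for all tests here, was -1.48 ± 0.11 (standard error, as after every log2 fold change below), and the adjusted p was 0.000355 (limma, Benjamini-Hochberg over all 12590 genes tested).

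Irgm2 (ENSMUSG00000069874; chromosome 11, 58199618 to 58222782, plus strand) was at 2.64, 2.71 and 3.30 FPKM in OC and at 0.67, 0.94 and 1.13 FPKM in PAKG. The highest PAKG library was less than the lowest OC library by more than the range within PAKG. Its means were 2.88 ± 0.363 and 0.913 ± 0.231 FPKM (SD, n = 3), and the log2 fold change was -1.58 ± 0.19 (adjusted p = 0.00196). Irgm2 and Igtp ranked 26 and 37 from the lowest log2 fold change among the 12590 genes tested.

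Igtp and Irgm2 are neighbours on one strand, and their annotated spans overlap. In GENCODE M21, 162 exonic bases are shared, 8.01% of the exonic bases of Igtp and 4.39% of those of Irgm2. All 162 come from 1 Irgm2 transcript, which starts at 58199618 and is not among the transcripts that the files list for Irgm2. The 2 Irgm2 transcripts that are listed start at 58215028 and 58215008 and share 0 bases with Igtp exons. The genes are also similar in sequence: 10.61% of the distinct 50-base words of Igtp's listed transcripts occur in those of Irgm2, so some reads could be assigned to either. The sum of both is therefore also given, although a fragment counts for more FPKM in Igtp than in Irgm2, since their longest listed transcripts are 2022 and 3528 bases.

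Summed, Igtp and Irgm2 were at 6.25, 6.08 and 6.96 FPKM in OC and at 1.98, 2.03 and 2.35 FPKM in PAKG. The groups did not overlap, and the means, 6.43 ± 0.467 and 2.12 ± 0.201 FPKM (SD, n = 3), differed by a ratio of 3.03. The log2 fold change of the sum was -1.56, with a 95% interval of -1.79 to -1.32 and an adjusted p of 0.000267. An exact 2-sided permutation test of 3 against 3 libraries gave p = 0.1, the smallest value this design allows. Irgm2 made up 42.2 to 47.4% of the sum in OC and 33.8 to 48.1% in PAKG, ranges that overlap.

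Irgm1 (ENSMUSG00000046879; chromosome 11, 48861968 to 48871683, minus strand), the most abundant of the 10 genes, was at 12.13, 10.96 and 12.69 FPKM in OC and at 9.99, 9.73 and 10.79 FPKM in PAKG. The groups did not overlap, although the highest PAKG library and the lowest OC library were nearly level. The means were 11.9 ± 0.883 and 10.2 ± 0.552 FPKM (SD, n = 3), and the log2 fold change of -0.23 (95% interval -0.42 to -0.03) did not pass the test (adjusted p = 0.116). With the replicate number as a block the adjusted p of Irgm1 was 0.0222, and without replicate 2 of both groups it was 0.0493. The ratio of Igtp to Irgm1 in a library was 0.288 to 0.307 in OC and 0.112 to 0.131 in PAKG, and that of Irgm2 to Irgm1 was 0.218 to 0.260 and 0.0671 to 0.105. Neither ratio overlapped between the groups (exact permutation p = 0.1, the smallest possible, and 0.133 after adjustment over the 4 ratios tested). Both set a gene that passed the test over a gene that did not, so they restate the fold changes and add no separate support. The ratios were not among the planned tests.

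**Figure D2:**
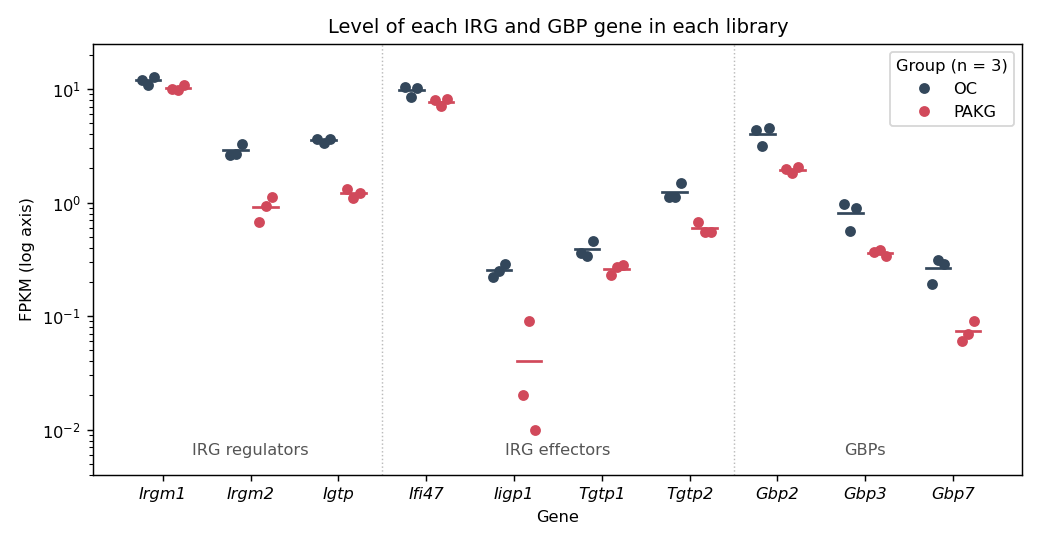
FPKM, on a logarithmic axis, of each of the 10 genes in the 3 OC and 3 PAKG libraries, with a point for each library and a line at the group mean, ordered as IRG regulators, IRG effectors and GBPs. For all 10 genes every PAKG library lies below every OC library, as it does in 11.4% of the 25742 genes of the fit with no minimum on FPKM.

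The effectors differed among themselves. Ifi47 (ENSMUSG00000078920; chromosome 11, 49076587 to 49096974, plus strand), also called Irgd, was at 10.54, 8.61 and 10.23 FPKM in OC and at 8.07, 7.13 and 8.14 FPKM in PAKG. The PAKG libraries lay just under the lowest OC library. Its means of 9.79 ± 1.04 and 7.78 ± 0.564 FPKM (SD, n = 3) gave a log2 fold change of -0.33 (95% interval -0.56 to -0.09), which did not pass the test (adjusted p = 0.0731). The block brought the adjusted p of Ifi47 to 0.00831, leaving out OC replicate 2, its lowest OC library, to 0.0344, and leaving out replicate 2 of both groups to 0.0137.

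Tgtp2 (ENSMUSG00000078921; chromosome 11, 49057194 to 49064206, minus strand) was at 1.13, 1.13 and 1.49 FPKM in OC and at 0.68, 0.55 and 0.55 FPKM in PAKG. The third OC library stood above the other two, and all 3 PAKG libraries lay below them. Tgtp2 passed the test at -0.96 ± 0.18 on the log2 scale (adjusted p = 0.0123), but not without PAKG replicate 3 (0.0540) or without OC replicate 3 (0.0610). Tgtp1 (ENSMUSG00000078922; chromosome 11, 48985327 to 48994172, minus strand), which lies nearby on the same strand, was at 0.36, 0.34 and 0.46 FPKM in OC and at 0.23, 0.27 and 0.28 FPKM in PAKG. Its mean was under the minimum of 0.5 FPKM set for testing. In a fit of all 25742 genes with no such minimum, its log2 fold change was -0.43 (95% interval -0.95 to 0.09, adjusted p = 0.395).

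Tgtp1 and Tgtp2 are close copies: 89.4% of the 50-base words in Tgtp1 transcripts occur in those of Tgtp2, and 85.84% the other way. Their separate values are therefore uncertain. Their sum was 1.49, 1.47 and 1.95 FPKM in OC and 0.91, 0.82 and 0.83 FPKM in PAKG. The groups did not overlap, and the summed means of 1.64 ± 0.272 and 0.853 ± 0.0493 FPKM (SD, n = 3) differed by -0.86 ± 0.15 on the log2 scale (adjusted p = 0.0104, exact permutation p = 0.1). The ratio of Tgtp2 to Ifi47 was 0.107 to 0.146 in OC and 0.0676 to 0.0843 in PAKG, which restates that Tgtp2 passed the test and Ifi47 did not.

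Iigp1 (ENSMUSG00000054072), also called Irga6, is the best-studied effector. It was at 0.22, 0.25 and 0.29 FPKM in OC and at 0.02, 0.09 and 0.01 FPKM in PAKG, which corresponds to an estimated 23, 29 and 34 fragments and 3, 9 and 1 fragments. The PAKG libraries thus rest on very few fragments, and the gene was under the minimum for testing. Its log2 fold change in the fit with no minimum was -1.37 ± 0.26 (adjusted p = 0.0346), which the pseudocount makes smaller than the ratio of its means, 6.33.

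The 3 GBP genes lie close together on chromosome 3. Gbp2 (ENSMUSG00000028270; 142620602 to 142638008, plus strand), the most abundant of them and a GBP known to act on Toxoplasma vacuoles, was at 4.4, 3.13 and 4.58 FPKM in OC and at 1.97, 1.83 and 2.04 FPKM in PAKG. The second OC library was lower than the other two but above all PAKG libraries. Its means were 4.04 ± 0.790 and 1.95 ± 0.107 FPKM (SD, n = 3). Gbp2 passed the test at -0.997 ± 0.15 on the log2 scale (adjusted p = 0.00522), just short of the 2-fold threshold on the log2(FPKM + 0.1) scale.

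Gbp3 (ENSMUSG00000028268; 142560026 to 142573209, plus strand) was at 0.98, 0.56 and 0.89 FPKM in OC and at 0.37, 0.38 and 0.34 FPKM in PAKG. Its second OC library was again the lowest, while the PAKG libraries were nearly equal. The log2 fold change of Gbp3 was -0.94 ± 0.24, and the adjusted p of 0.0406 was close to the threshold. It rose to 0.0933 with no minimum on FPKM, and to 0.0969, 0.0562 and 0.126 without PAKG replicate 1, 2 and 3, and to 0.135 and 0.151 without OC replicate 1 and 3.

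Gbp7 (ENSMUSG00000040253; 142530342 to 142550149, plus strand), another GBP, was at 0.19, 0.31 and 0.29 FPKM in OC and at 0.06, 0.07 and 0.09 FPKM in PAKG, with about 161 and 44 fragments behind the groups. The groups did not overlap. It was under the minimum for testing, and the fit with no minimum put it at -1.06 ± 0.22 on the log2 scale (adjusted p = 0.0488). The ratio of Gbp2 to Gbp3 overlapped between the groups, at 4.49 to 5.59 in OC and 4.82 to 6 in PAKG (exact permutation p = 0.5).

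As a family, the 10 genes summed to 36.2, 31.37 and 37.88 FPKM in OC and to 23.37, 22.08 and 24.59 FPKM in PAKG. The second OC library was the lowest of its group in 6 of the 10 genes, and the third the highest in 7. The family means were 35.2 ± 3.38 and 23.3 ± 1.26 FPKM (SD, n = 3), a ratio of 1.51. Its 7 IRG genes summed to 27.37 to 32.12 FPKM in OC and 19.8 to 22.12 FPKM in PAKG, a ratio of 1.43. The 3 GBP genes summed to 4 to 5.76 FPKM in OC and 2.28 to 2.47 FPKM in PAKG, a ratio of 2.14. Irgm1 and Ifi47, the pair that missed the test, made up 60.5 to 62.6% of the family's FPKM in OC and 76.4 to 77.3% in PAKG. The pair was picked by its small change, so its larger share in PAKG restates the fold changes above.

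By mean FPKM the order was the same in both groups: Irgm1, Ifi47, Gbp2, Igtp, Irgm2, Tgtp2, Gbp3, Tgtp1, Gbp7 and Iigp1. Among the OC libraries the ranges of Gbp2 and Igtp and those of Gbp7 and Iigp1 overlapped. Among the PAKG libraries the overlapping neighbours were Igtp and Irgm2, Irgm2 and Tgtp2, and Gbp7 and Iigp1.

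**Figure D3:**
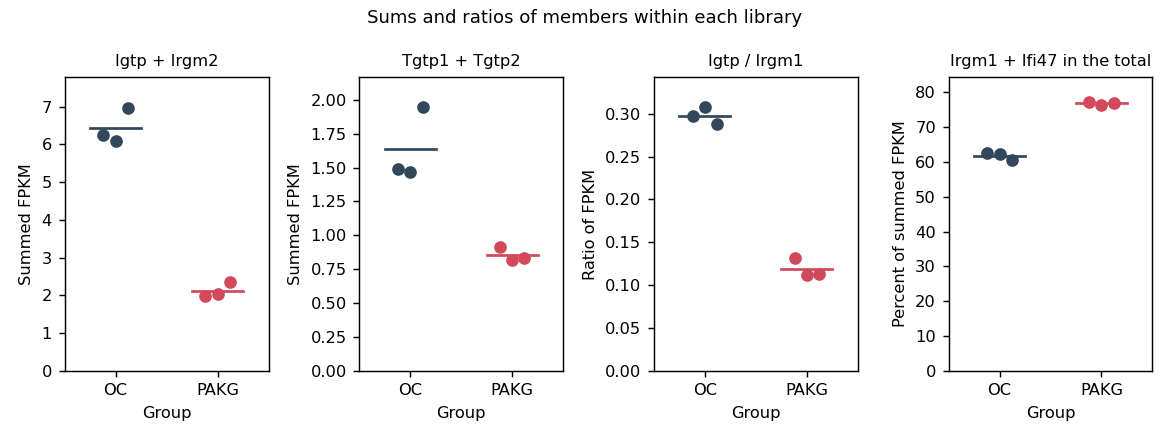
From left to right, for each library (points, with a line at the group mean), the summed FPKM of Igtp and Irgm2, that of Tgtp1 and Tgtp2, the ratio of Igtp to Irgm1, and the percentage of the summed FPKM of all 10 genes that Irgm1 and Ifi47 make up. The sum of Igtp and Irgm2 lies at 6.08 to 6.96 in OC and 1.98 to 2.35 in PAKG. None of the 4 measures shown overlaps between the groups. The ratio of Gbp2 to Gbp3 and the Irgm2 percentage of its sum with Igtp, not shown, do overlap. The ratio and the percentage shown use Irgm1 and Ifi47, picked by their small change, and restate the fold changes.

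Of the 7 genes that reached the mean of 0.5 FPKM set for testing, 5 were lower in PAKG at an adjusted p under 0.05 (Igtp, Irgm2, Tgtp2, Gbp2 and Gbp3) and 0 were higher. Of all 12590 genes tested, 8.73% were lower by the same rule and 5.97% were higher. At both thresholds, where the fold change also had to reach 2, the calls were 2 of 7 (Igtp and Irgm2), against 0.58% of all tested genes. The median log2 fold change was -0.96 over the 7 genes and -0.03 over all genes tested. The 3 other genes are accounted for by the fit with no minimum on FPKM, in which 6 of the 10 genes were lower (3.03% of its 25742 genes) and 4 were lower at both thresholds (0.381%). Without overlap between the groups, all 10 were lower, against 11.4% of the 25742 genes of that fit, which include the low ones. That share was not computed among the 12590 genes above the minimum. With the replicate block all 7 tested genes were lower, against 17.1% of all genes.

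The count at the adjusted p alone was 3 without PAKG replicate 3 and 3 without OC replicate 3. The count at both thresholds was 4 without PAKG replicate 1 and 5 without OC replicate 2. The shares of all genes called in those fits were not computed, so these shifts cannot be set against the general rate of calls. Igtp and Irgm2 passed both thresholds in all 15 alternatives tried, and Gbp2 passed the adjusted p in all 15.

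**Figure D4:**
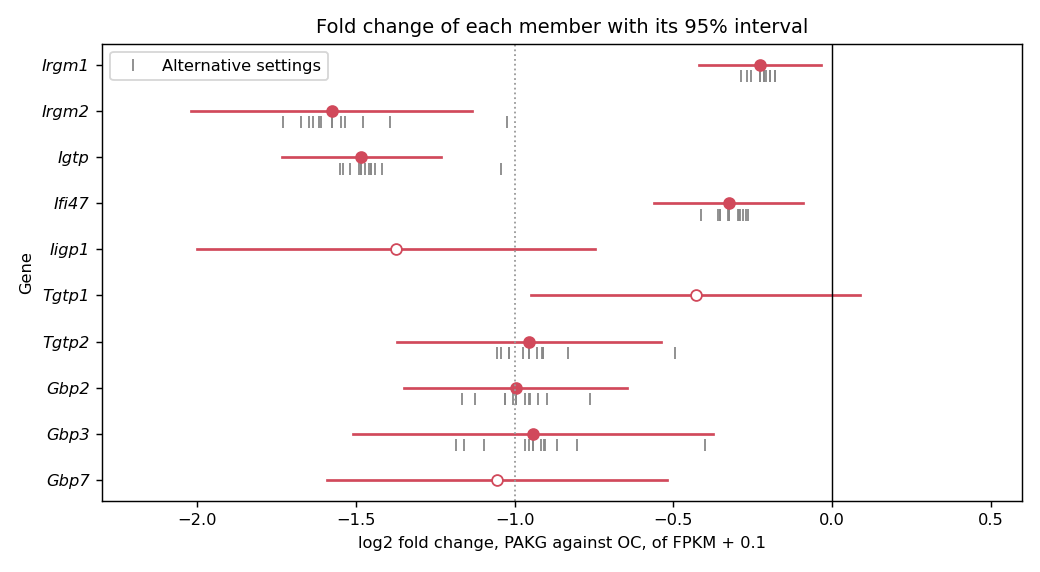
Log2 fold change, PAKG against OC, on the log2(FPKM + 0.1) scale, with 95% intervals as bars, for the 7 tested genes (filled points) and the 3 genes of the fit with no minimum on FPKM (open points). Grey ticks are the values of the tested genes in the alternatives, other pseudocounts included, and the dotted line marks a 2-fold lower level. Among the tested genes Irgm2 and Igtp lie lowest at -1.58 and -1.48, and Irgm1 and Ifi47 lie nearest to 0 at -0.23 and -0.33.

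Other loci of both families were listed in the files for 14 of the 17 names looked up, and 1 of them, Irgq, an IRG-like gene, was high enough to be tested. Irgq was at 3.31, 3.95 and 3.44 FPKM in OC and at 3.55, 4.36 and 3.91 FPKM in PAKG (log2 fold change 0.14, adjusted p = 0.459). In the fit with no minimum, 0 of the 14 passed the adjusted p with limma, by which 3.03% of its 25742 genes were lower. At an unadjusted p under 0.05, 3 of the 14 were lower, and the share of all genes by that rule was not computed. In 4 of the 14, Gbp6, Gm12250, Gm4951 and F830016B08Rik, the groups did not overlap and PAKG was lower, against 11.4% of all genes in that fit. They and 9930111J21Rik2 are named after their values were seen. 9930111J21Rik2, with a higher mean than any of the 4, overlapped between the groups, at 0.29, 0.67 and 0.45 FPKM in OC and 0.32, 0.66 and 0.35 FPKM in PAKG. Gbp6 was at 0.190 ± 0.03 FPKM in OC and 0.05 ± 0.0265 FPKM in PAKG (SD, n = 3). Gm12250, known as Irgb10, was at 0.400 ± 0.210 and 0.0700 ± 0.0436 FPKM (SD, n = 3). F830016B08Rik was at 0.02, 0.02 and 0.01 FPKM in OC and at 0 in each PAKG library. That separation rests on an estimated 5 fragments in the whole OC group.

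Of 22 genes for interferons, their receptors and signalling, 19 were tested, and 6 were lower and 1 was higher at the adjusted p. At both thresholds 3 were lower, and the median log2 fold change was -0.03. Of all genes tested, 8.73% were lower and 5.97% higher at the adjusted p, and 0.58% were lower at both thresholds. Several of the lower genes on the list encode transcription factors of the interferon response. Irf9, an IRF protein that binds the ISRE, was at 3.23, 2.85 and 3.4 FPKM in OC and at 1.20, 1.40 and 1.21 FPKM in PAKG (log2 fold change -1.25, adjusted p = 0.000792). Irf1, an activator of IRG and GBP genes, was at 12.16, 10.98 and 10.81 FPKM and at 8.00, 7.79 and 7.88 FPKM (-0.51, adjusted p = 0.00405). Neither overlapped between the groups.

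Usp18, which restrains signalling at the type I interferon receptor, was at 1.28, 0.83 and 1.22 FPKM in OC and at 0.18, 0.19 and 0.12 FPKM in PAKG (log2 fold change -2.19, adjusted p = 0.00174). Irf7 and Stat2 were also lower, and Jak2, a kinase of the interferon gamma receptor, was higher (0.28, adjusted p = 0.0346). The call of Jak2 was lost in 8 of the 15 alternatives: with no minimum on FPKM (adjusted p = 0.0506), rescaled to a common total, with no trend, and without PAKG replicate 1, 2 or 3 or OC replicate 1 or 3. The receptor genes Ifngr1, Ifngr2, Ifnar1 and Ifnar2 did not pass the test. Ifngr1 was at 13.6 ± 1.14 FPKM in OC and 15.2 ± 0.140 FPKM in PAKG, and Ifngr2 at 13.2 ± 0.907 and 14.3 ± 0.265 FPKM (SD, n = 3). In 7 of the 19 tested genes of the list PAKG was lower without overlap, and in 2, Ifngr1 and Jak2, it was higher. The share of such genes among all tested genes was not computed. Ifnb1, which encodes interferon beta, was listed at 0 in 5 of the 6 libraries and at 0.08 FPKM in OC replicate 1. Ifng was not analysed here.

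Of 32 other interferon-induced genes, 20 were tested, and 11 were lower and 0 higher at the adjusted p. At both thresholds 6 were lower, and the median log2 fold change was -0.67. The shares of all tested genes were 8.73% lower and 5.97% higher at the adjusted p, and 0.58% lower at both thresholds. Isg15, a ubiquitin-like protein, was at 17.94, 14.34 and 20.76 FPKM in OC and at 4.22, 3.43 and 4.14 FPKM in PAKG (log2 fold change -2.13, adjusted p = 0.000286). Ifit1, which binds foreign RNA, was at 2.74, 2.43 and 2.54 FPKM and at 0.38, 0.16 and 0.17 FPKM (-3.05, adjusted p = 0.000543). Neither overlapped between the groups, and both changed by more on the log2 scale than any of the 7 tested GTPases. Ddx58, the RNA sensor RIG-I, changed by -0.80 on that scale (adjusted p = 0.000686) and Ifit2, a relative of Ifit1, by -0.97 (adjusted p = 0.00171).

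IRG and GBP proteins are guided to vacuoles by the ATG8 conjugation machinery of autophagy, and act with ubiquitin ligases and inflammasome proteins. Of 23 such genes, 21 were tested, 2 were lower and 2 higher, with a median log2 fold change of 0.04. The shares of lower and higher genes are near those of all tested genes, 8.73% and 5.97%. Trim21 (-0.72, adjusted p = 0.0118) and Rnf213 (-0.90, adjusted p = 0.0219), both ubiquitin ligases that interferon also induces, were lower. Optn (0.74, adjusted p = 0.00109), an autophagy receptor, and Map1lc3b (0.39, adjusted p = 0.0163), an ATG8 protein, were higher. The number called was 10 with the replicate block, 3 lower and 7 higher, where 17.1% of all genes were lower and 12.3% higher. It was 7 without PAKG replicate 2, 2 without PAKG replicate 1, 2 without PAKG replicate 3, and 1 without OC replicate 3. For the fits with a library left out, the shares of all genes were not computed.

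Some GBPs, Gbp2 among them, carry a lipid tail added by prenylation enzymes. All 5 genes of these enzymes were tested, and 0 passed the adjusted p or an unadjusted p under 0.05 with limma. By the adjusted p, 8.73% of all tested genes were lower and 5.97% higher. Fnta, a subunit of the enzymes, was at 30.7 ± 1.91 FPKM in OC and 31.9 ± 3.51 FPKM in PAKG (SD, n = 3; log2 fold change 0.05, adjusted p = 0.785), and Rce1, which trims prenylated proteins, differed by 0.09 on the log2 scale (adjusted p = 0.661).

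**Figure D5:**
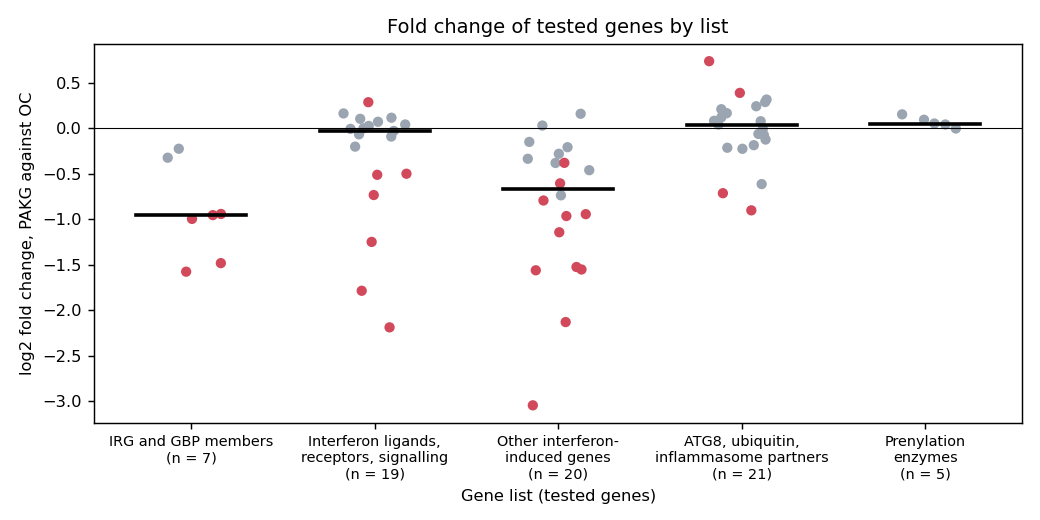
Log2 fold change between PAKG and OC for every tested gene of the IRG and GBP family and of 4 related gene lists, with a point for each gene, red where it passed an adjusted p under 0.05 and grey where it did not, and a black line at the median of the list. The median is -0.96 for the 7 family genes, -0.67 for other interferon-induced genes and between -0.03 and 0.05 for the other lists.

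Since IRG and GBP genes are well expressed in leukocytes, markers of those cells were looked up. Of 10 leukocyte and macrophage markers, 5 were listed in the files, and their sum was 9.21 to 12.15 FPKM in OC and 16.07 to 17.7 FPKM in PAKG. Nearly all of it was Lyz2, a lysozyme, which was higher in PAKG (log2 fold change 0.64, adjusted p = 0.0120). Cd68, the only other of these markers tested, changed by -0.10 on the log2 scale (adjusted p = 0.841). Csf1r and Nkg7 were under the minimum for testing. The fit with no minimum put them at 0.94 (adjusted p = 0.0673) and 0.73 (adjusted p = 0.199). Ptprc (CD45), which defines leukocytes, was listed at 0 in 5 of the 6 libraries and at 0.01 FPKM in the sixth. Of 4 endothelial markers, the 2 listed were at 0.03 FPKM or less. Fewer cells that express a gene and less of its RNA per cell cannot be told apart in such bulk samples.

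Genes with a predicted-gene symbol were left out of a search for the patterns over the 6 libraries most like the mean pattern of the family. The nearest genes were found by the root mean square difference in centred log2 values from the mean profile of the 7 tested genes. They were Cdkn3 (0.0699), Cdc25c (0.0705), Socs3 (0.0845), Tk1 (0.0848) and Hmgb3 (0.0947), with log2 fold changes of -0.87, -0.82, -0.86, -0.83 and -0.86. In the mean family profile, on the same scale, the OC libraries were at 0.51, 0.27 and 0.61 and the PAKG libraries at -0.47, -0.52 and -0.41. The log2 fold changes of the 7 genes ran from -1.58 to -0.23, so this mean is not the pattern of each member.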

How the data were processed

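Poly(A) RNA-Seq of 6 libraries of MC3T3-E1 cells was used, 3 PAKG and 3 OC, grouped by their labels. The deposited FPKM, which the authors had rounded to 2 decimals, fill 1 table for each library, and all tables list the same 26187 genes. Tools named in the submitters' notes, without versions, are HISAT2, StringTie, cutadapt, FastQC and DESeq2, and the build named is GRCm38. The annotation release is not given in the sources used here. Count models were not run, since FPKM are normalized. In each library 1 fragment on 1 kb was worth an estimated 0.0237 to 0.0305 FPKM, from the steps of low values, and whole reads were not recovered.

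On the scale log2(FPKM + 0.1), limma 3.58.1 in R 4.3.3 (lmFit and eBayes, trend on) compared the groups in the 12590 genes whose mean over the libraries reached 0.5 FPKM. Tests were 2-sided, and p-values were adjusted by Benjamini-Hochberg over all these genes. The script was tested on simulated data. Permutation tests were exact (scipy 1.17.1). Fold changes on this scale understate those of low genes. Coordinates are from GENCODE M21 on GRCm38, which held 99.76% of the gene IDs. 50-base words were compared between GENCODE M21 transcripts, and promoter windows came from RefSeq on GRCm38.p6.

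The members and lists were chosen with earlier results of these data known. Named genes are the 10 members and the 5 nearest profiles, with predicted-gene symbols left out. For each related list they are also up to 4 genes with the smallest adjusted p among those called. With none called, they are the 2 of highest mean. Other genes were named to account for a list. One gene that the rule names is not reported here.

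Alternatives were another pseudocount (1 or 0.01), no minimum or one of 1 FPKM, 2 other scalings, no trend, the replicate number as a block, and each library left out. Leaving out replicate 2 of both groups was added after the data were seen. The deviations of same-numbered libraries from their group means correlated at 0.192 to 0.430 in the 3 pairs. Those of other libraries correlated at -0.312 to 0.138. The same-numbered values all passed a minimum of 0.1, which the highest of the others also passed. The number was therefore used as a block in an alternative only, and the main fit and its p-values take no account of it. Neither the labels nor the paper say what the number marks.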

Additional observations from a re-analysis of the deposited data

How the results depend on the processing

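In the 15 alternatives no fold change of the 7 tested genes or of the sums changed direction. The family's count at both thresholds, 2, became 5 with a pseudocount of 0.01, 4 with no minimum on FPKM and 4 without replicate 2 of both groups, and ranged from 2 to 5 with single libraries left out. Its count at the adjusted p alone, 5, became 3 with a minimum of 1 FPKM, which leaves 5 members tested, and ranged from 3 to 6 with single libraries left out. With the replicate block it was 7, with Irgm1 (adjusted p = 0.0222) and Ifi47 (adjusted p = 0.00831) added, and the block changed no other call of a family gene. Of all genes, 17.1% were lower with the block and 8.73% without. Apart from the fit with no minimum on FPKM, no such share was computed for the other alternatives. The median log2 fold change of the tested family genes, -0.96, was -0.495 with a pseudocount of 1, -1.12 without replicate 2 of both groups, and -1.16 to -0.87 with single libraries left out. The ATG8, ubiquitin and inflammasome list, with 4 called, had 10 called with the block, 7 without replicate 2 of both groups and 1 to 7 with single libraries left out. The cause of these shifts was not tested. The log2 fold change of the 10 genes summed ranged from -0.66 to -0.53 with single libraries left out, and settings that need a fit over all genes give no value for it.

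Iigp1, Tgtp1 and Gbp7 rest on few fragments and on values rounded to 2 decimals, and have no value in the fit with a minimum. Tgtp1 and Tgtp2 cannot be told apart well by sequence. With 3 libraries a group, 0.1 is the smallest exact permutation p.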

Other observations

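The ISRE core was also counted in the promoter windows of other genes, a description chosen after the data were seen and given with no test. Of 8849 tested genes with a window, 303 held the core, and of these 46 were lower (15.2%) and 21 higher (6.9%) in PAKG at an adjusted p under 0.05. With the IRG and GBP members left out, 41 of 297 were lower (13.8%). Of the 8546 genes without the core, 757 were lower (8.9%). The median log2 fold change was -0.05 with the core, and most genes that hold it did not pass the test. Of the 24 genes with at least 2 matches, 9 were lower (37.5%) and 1 was higher. The 24 include the family members Irgm1 and Gbp3, and Gbp3 is among the 9.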
